A study of Mus musculus with 10 samples.

Results

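The myo-inositol transport and synthesis genes were followed in the hippocampus of Dp1Tyb mice, together with Mrps6, the gene that overlaps the transporter gene Slc5a3. The set holds 7 of the 43629 genes in the count table and is defined by gene identity on GRCm38. No measured value enters that definition, but earlier results of these data were known when the set was chosen. Slc5a3 and Mrps6 lie in the segment that Dp1Tyb mice carry in 3 copies and wild-type (WT) littermates in 2, whereas Slc5a11, Slc2a13, Isyna1, Impa1 and Impa2 lie elsewhere in the genome at 2 copies in both genotypes. Dp1Tyb mice carry the duplication Dp(16Lipi-Zbtb21)1TybEmcf, which runs from Lipi to Zbtb21 on chromosome 16 and serves as a mouse model of Down syndrome. RNA was sequenced from the total hippocampus of 5 Dp1Tyb and 5 WT mice, 1 library per mouse. Both groups were male littermates labelled as strain C57BL/6J.129P2 and as 18 weeks old, untreated as far as the labels state. The duplication is a germline change and not restricted to the brain.

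myo-Inositol is a cyclic sugar alcohol that cells use as the head group of phosphatidylinositol, the parent lipid of phosphoinositide and IP3 signalling, and as an organic osmolyte that brain cells accumulate under hypertonic stress. Cells take it up through the sodium-coupled transporters SMIT1 (gene Slc5a3) and SMIT2 (Slc5a11) and the proton-coupled transporter HMIT (Slc2a13). They make it from glucose-6-phosphate with inositol-3-phosphate synthase (Isyna1), followed by an inositol monophosphatase (Impa1 or Impa2), the lithium-sensitive enzyme that also recycles inositol from inositol phosphates. The human counterpart of Slc5a3 lies on the chromosome that is trisomic in Down syndrome, which is why its dosage is of interest in this model. Mrps6 encodes a protein of the small subunit of the mitochondrial ribosome and has no known role in inositol metabolism.

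In the GRCm38 annotation (GENCODE M21), Mrps6 (ENSMUSG00000039680) spans chr16:92058270-92112227 and Slc5a3 (ENSMUSG00000089774) spans chr16:92058322-92087473, both on the plus strand. The 2 genes start 52 bases apart and share 159 bases of their first exon, which is 1.46% of the exon sequence of Slc5a3 and 10.37% of that of Mrps6. The coding sequence of Slc5a3, 2154 bases in a single exon at chr16:92077057-92079210, lies inside an intron of Mrps6. Reads within the shared bases cannot be given to 1 of the 2 genes by position. A read-through gene annotated across both, Gm49711, shares 159 exon bases with Slc5a3 (1.46%) and 305 with Mrps6 (19.9%). Gm49711 was not analysed here.

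Because the 2 genes begin almost together, 1 stretch of genomic sequence precedes both. The stretch at chr16:92058072-92058269 (plus strand, 198 bases, RefSeq window on GRCm38.p6) ends 1 base before the start of Mrps6 and 53 bases before that of Slc5a3. It is shown because any element in it sits upstream of both duplicated members. Capitals mark GGGCGG, the core of the GC box bound by Sp-family factors, read on either strand, with the first pair of its 4 matches overlapping by 1 base.
Slc5a3 and Mrps6 shared upstream stretch: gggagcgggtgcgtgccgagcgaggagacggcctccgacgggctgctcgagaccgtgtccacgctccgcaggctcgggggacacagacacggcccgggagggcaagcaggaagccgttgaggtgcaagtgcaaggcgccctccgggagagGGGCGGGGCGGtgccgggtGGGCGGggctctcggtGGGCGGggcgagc

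RefSeq start windows of 300 bases (250 before and 50 after the start) were matched for 5 of the 7 members, namely Slc5a3, Mrps6, Slc5a11, Slc2a13 and Isyna1. The windows of Slc5a3 and Mrps6 have 286 bases in common. The Slc5a3 window is 73.3% G and C, higher than 94.5% of the 32851 windows of the genome (median 52.7%), and holds 38 CG pairs against a median of 7. GGGCGG occurs in 35.7% of all windows, 4 times in the windows of Slc5a3 and Mrps6, 3 times in that of Slc2a13 and not in those of Slc5a11 and Isyna1. The letters TGGAAA, the core of the element bound by the osmotic-stress factor NFAT5, occur in 21.4% of all windows and in none of the 5, which says only that these letters are not in these windows.

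Library sizes ranged from 18227684 to 43692270 counted reads. With edgeR's quasi-likelihood test and Benjamini-Hochberg adjustment, 191 of 17237 tested genes (1.11%) were called at an adjusted p under 0.05, as were 68 of the 114 tested genes of the duplicated segment (59.6%). The libraries differed widely in RNA of the choroid plexus, the epithelium that lies against the hippocampus and can be taken with it in dissection. The summed level of 11 choroid plexus markers ran from 804.7 to 8267 CPM (counts scaled to a common library size) in WT and from 194.9 to 5631 CPM in Dp1Tyb mice. None of the 11 was at 0 in a sample and none was called. The lowest 3 samples were Dp1Tyb 1, Dp1Tyb 4 and WT 2, and the list averaged 5.64 ± 1.35 in WT against 4.14 ± 2.14 in Dp1Tyb mice on the log2 CPM scale (SD, n = 5 each, difference -1.50, exact two-sided permutation p = 0.214). With a mouse left out this difference ran from -0.915 (without Dp1Tyb 1) to -2.06 (without WT 2). In bulk tissue, fewer cells of a type and less RNA per cell cannot be told apart. The summed levels of 8 neuronal markers, the defining RNA of the labelled tissue, were 4132 to 4622 CPM in WT and 4650 to 4998 CPM in Dp1Tyb.

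None of the 7 members was called in the comparison of all 10 mice, against 1.11% of all tested genes (0.87% higher and 0.238% lower in Dp1Tyb). Slc5a3, Mrps6 and Slc2a13 had the lowest p-values, with higher means in Dp1Tyb, and passed an unadjusted p of 0.05, which 14.4% of all tested genes and 14.0% of those outside the duplicated segment did. No member had CPM values that separated the genotypes completely, a pattern seen in 3.68% of all tested genes and in 62.3% of the duplicated ones. The calls for the 2 duplicated members depended on the model. DESeq2 called both, against 3.2% of all genes to which it gave an adjusted p. So did edgeR with the choroid plexus level as a covariate, against 0.841% of all tested genes. Of the 114 tested duplicated genes, 59.6% were called in the main edgeR fit and 61.4% in the covariate fit.

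**Figure D1:**
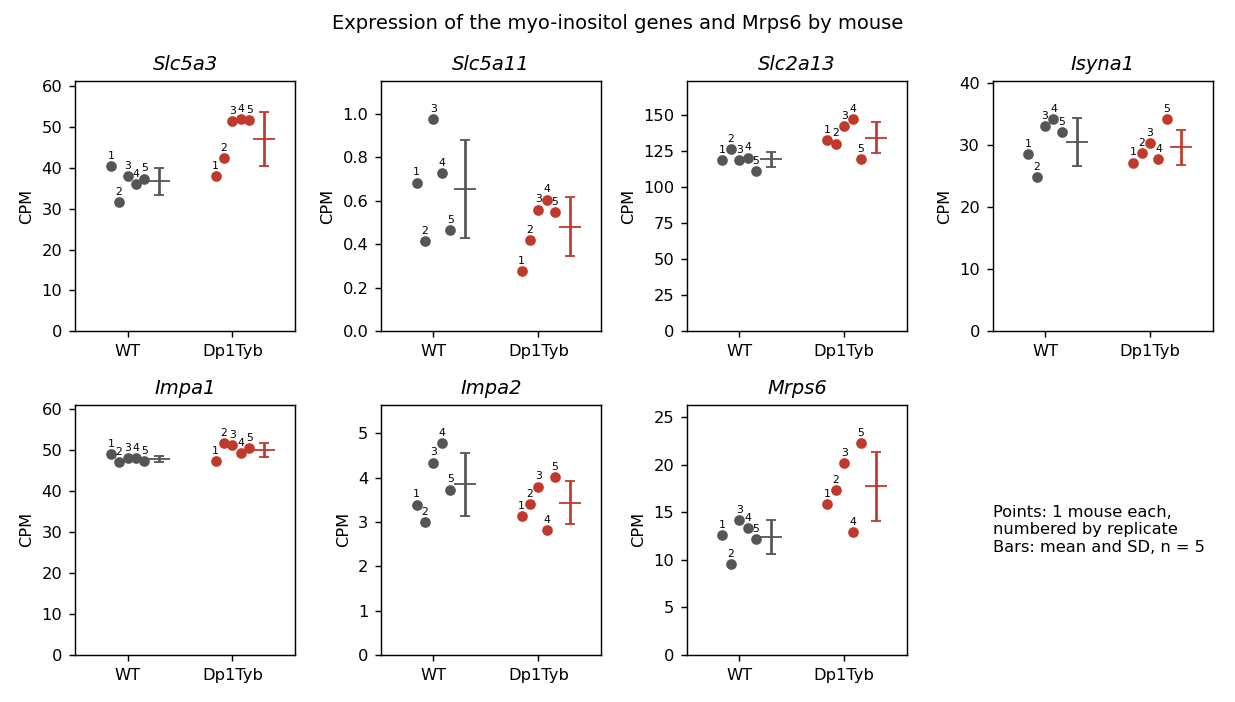
CPM of each member (y axis from 0) in each mouse, with WT in grey and Dp1Tyb in red, points numbered by replicate, and bars giving the mean and SD of 5 mice. For Slc5a3, Slc2a13, Mrps6 and Impa1, 4 of 5 Dp1Tyb points lie above every WT point.

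Slc5a3, the high-affinity sodium/myo-inositol cotransporter, was at 40.5, 31.5, 38.1, 35.9 and 37.4 CPM in WT mice 1 to 5. In Dp1Tyb mice 1 to 5 it was at 37.9, 42.4, 51.4, 51.9 and 51.7 CPM. Thus 4 of 5 Dp1Tyb values lay above the highest WT value, and Dp1Tyb 1 fell within the WT range. The means were 36.7 ± 3.32 and 47.1 ± 6.51 CPM (SD, n = 5 each), a fold difference of 1.28 (95% interval 1.11 to 1.47). The log2 fold change was 0.36 ± 0.093 (SE), with an adjusted p of 0.0906 in edgeR. The value that 3 copies against 2 would give in proportion, 0.585, lies just above the interval of this log2 difference, 0.16 to 0.56, but inside the interval of the fit with a choroid plexus covariate, 0.24 to 0.62. DESeq2, the tool the study used, gave nearly the same log2 fold change, 0.35, with an adjusted p of 0.0115.

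Among the 114 tested duplicated genes, whose median log2 fold change was 0.53, Slc5a3 ranked 84th from the top and was 1 of the 46 that were not called. A direct test of Slc5a3 against its segment took, in each mouse, its centred log2 level minus the median of the other duplicated genes. The Dp1Tyb mean of this quantity was lower than the WT mean by a log2 difference of -0.16, with an exact two-sided permutation p of 0.143. Against the mean of the other duplicated genes in place of their median the difference was -0.064 (exact permutation p = 0.508). Against the median with a mouse left out, it ran from -0.10 without Dp1Tyb 1 to -0.21 without WT 2 (exact permutation p = 0.302 and 0.0714). The quantity itself ranged from -0.11 to 0.23 in WT and from -0.34 to 0.089 in Dp1Tyb. A difference from the other duplicated genes was thus not shown at 5 mice per group. The smallest p that 252 relabellings of the mice can give is 0.00794, and this test was 1 of 5 of its kind (adjusted p = 0.357).

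Mrps6 was at 12.6, 9.53, 14.2, 13.4 and 12.2 CPM in WT mice 1 to 5. In Dp1Tyb mice 1 to 5 it was at 15.9, 17.4, 20.2, 12.9 and 22.3 CPM. Dp1Tyb 4 lay inside the WT range, and the other 4 lay above it. The means were 12.4 ± 1.77 and 17.7 ± 3.65 CPM (SD, n = 5 each), a log2 fold change of 0.51 ± 0.14 (SE) and a fold difference of 1.43. The adjusted p was 0.106 in edgeR and 0.0110 in DESeq2. Mrps6 ranked 61st of the 114 duplicated genes by log2 fold change. Relative to the other duplicated genes it differed between genotypes by -0.024 on the log2 scale (exact two-sided permutation p = 0.849).

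The ratio of the 2 overlapping genes asks whether they differed by the same amount. The log2 ratio of Slc5a3 to Mrps6 in CPM was 1.65, 1.68, 1.39, 1.39 and 1.58 in WT mice 1 to 5. In Dp1Tyb mice 1 to 5 it was 1.23, 1.26, 1.33, 1.96 and 1.20. All WT values lay above those of Dp1Tyb 1, 2, 3 and 5 and below that of Dp1Tyb 4. The difference in means was -0.14 with an exact two-sided permutation p of 0.397 (adjusted over the 5 tests, 0.496). Dp1Tyb 4 deviated in the opposite direction from the other 4 Dp1Tyb mice, and without it the difference was -0.28 (exact permutation p = 0.0238, unadjusted). As this mouse was singled out by its own value, that p is no evidence of a difference. With any other mouse left out, the exact permutation p ran from 0.349 to 0.627. With 5 CPM added in place of 0.5, the difference over all mice was -0.063 (exact permutation p = 0.691).

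Choroid plexus marker RNA moved with Mrps6 more closely than with Slc5a3. Over the deviations of the 10 mice from their genotype means, Mrps6 correlated with the choroid plexus level at a Pearson r of 0.90 (exact permutation within genotypes p = 0.00243, adjusted over the 7 members 0.00794). Its Spearman rho was 0.84 (exact permutation p = 0.0136, adjusted 0.0473), and r was 0.92 without the 2 farthest mice, Dp1Tyb 1 and WT 2. For Slc5a3, r was 0.52 and rho 0.47 (exact permutation p = 0.203 and 0.261), and r was -0.15 without those 2 mice. Leaving out those 2 kept Dp1Tyb 4, whose mean log2 marker level was 1.92 against a Dp1Tyb mean of 4.14. It lay nearly as far from its genotype mean as WT 2, at 3.40 against a WT mean of 5.64. The r values without the 2 farthest mice, here and below, therefore still include an extreme mouse. They cannot show whether a correlation, or the lack of it, depends on such mice. Dp1Tyb 4, whose Mrps6 value lay in the WT range, was 1 of the 2 Dp1Tyb mice with the least choroid plexus RNA. In the same mouse Slc5a3 was the highest of all 10.

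**Figure D2:**
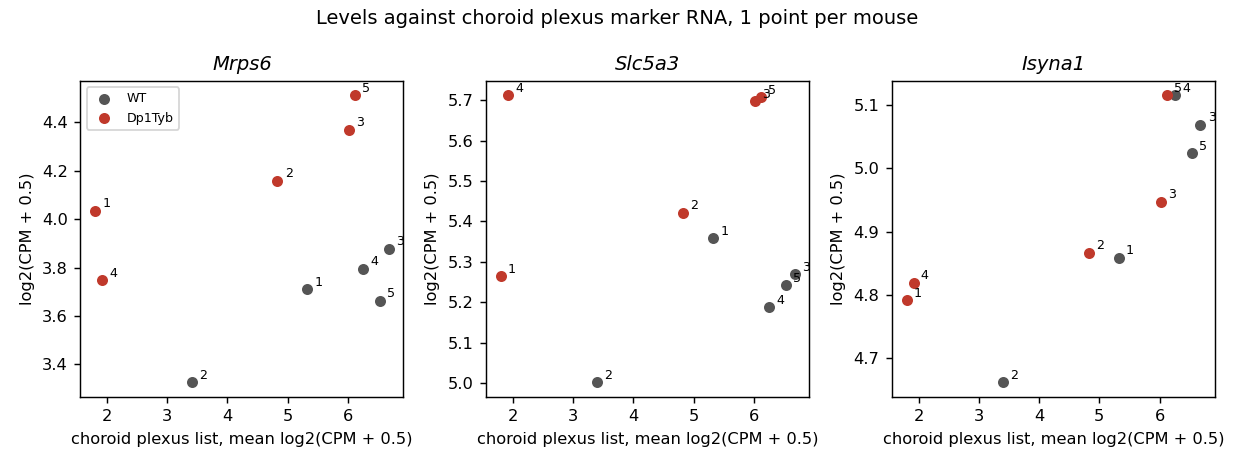
Level of Mrps6, Slc5a3 and Isyna1 (y axis, log2 of CPM plus 0.5) against the mean log2 level of the 11 choroid plexus markers (x axis), 1 numbered point per mouse, WT in grey and Dp1Tyb in red. Mrps6 is higher at higher marker levels within each genotype (r = 0.90 over deviations from the genotype means), whereas the Slc5a3 value of Dp1Tyb 4 is high at a low marker level.

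With the choroid plexus level added as a covariate in edgeR, Mrps6 was higher in Dp1Tyb by a log2 fold change of 0.70 ± 0.084 (SE), a fold difference of 1.63, with an adjusted p of 0.000195. It then ranked 20th of the 114 duplicated genes, of which 61.4% were called in that fit. Slc5a3 was higher by 0.43 ± 0.090 (SE), with an adjusted p of 0.0373 and rank 86. When each mouse in turn was left out of the covariate fit, which was done after the data were seen, Mrps6 was called in 10 of 10 fits. Slc5a3 was called in 4 of 10, with adjusted p-values from 0.00442 to 0.202. The 6 fits without a call were those without WT 2, 3, 4 or 5 or Dp1Tyb 3 or 5.

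**Figure D3:**
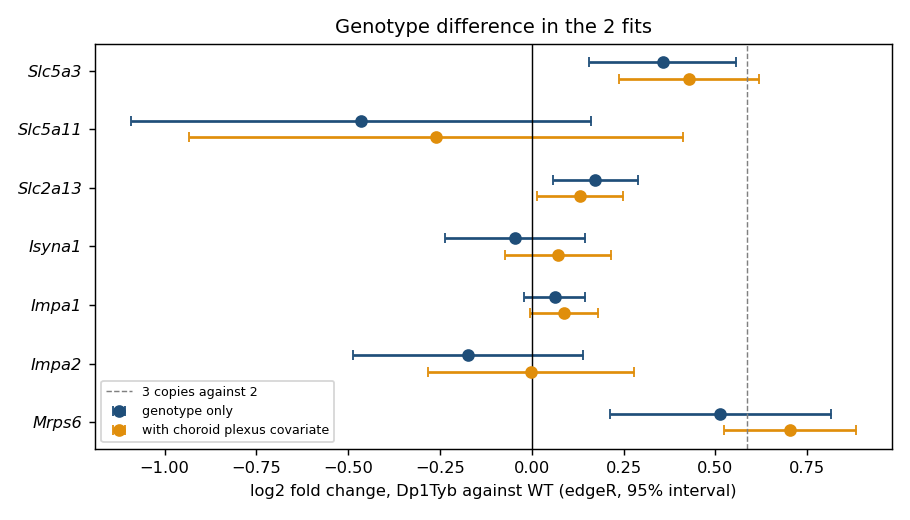
Log2 fold change of each member between Dp1Tyb and WT mice with its 95% interval (x axis), from edgeR with genotype alone in blue and with the choroid plexus level as a covariate in orange. The dashed line marks 0.585, and the Mrps6 estimate moves across it from 0.51 to 0.70 while that of Slc5a3 stays below it at 0.36 and 0.43.

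The position of the 2 genes within the duplication was examined through the tested genes whose span came within 500 kb of that of Slc5a3. These were 19 genes, 15 of them protein coding. Of the 13 coding genes other than Slc5a3 and Mrps6, 11 were called, all higher in Dp1Tyb. No other gene of the 19 was called, and over all 114 tested duplicated genes the share called was 59.6%. The 11 called genes had log2 fold changes from 0.48 to 0.79 and SEs of 0.041 to 0.085. They included Son, a splicing cofactor, at 0.79 ± 0.056 (SE), Itsn1, an endocytic scaffold, at 0.48 ± 0.043 (SE), and Rcan1, an inhibitor of calcineurin, at 0.56 ± 0.045 (SE). The nearest called gene, Atp5o, encodes a subunit of the mitochondrial ATP synthase and lies upstream of Slc5a3. It averaged 91.3 ± 3.30 CPM in WT mice and 136 ± 18.9 CPM in Dp1Tyb mice (SD, n = 5 each), with a log2 fold change of 0.57 ± 0.083 (SE) and an adjusted p of 0.00266.

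The 4 coding genes in this window without a call were Slc5a3, Mrps6, Kcne2 and Clic6. Kcne2, a potassium channel subunit abundant in choroid plexus, averaged 20.6 ± 12.2 CPM in WT mice and 15.7 ± 16.0 CPM in Dp1Tyb mice (SD, n = 5 each). Clic6, an intracellular chloride channel protein, was at 68.3 ± 40.5 and 52.5 ± 56.0 CPM. Both followed the choroid plexus level with an r of 0.99 over the 10 mice. With that level as a covariate, both log2 fold changes turned from negative to positive. Kcne2 went from -0.43 ± 0.83 to 0.47 ± 0.17 (SE) and Clic6 from -0.40 ± 0.87 to 0.44 ± 0.16 (SE). Neither was called in that fit (adjusted p = 0.259 and 0.293 in edgeR). The 4 tested non-coding genes of the window, among them Gm16310 within a Mrps6 intron at 0.83 to 0.89 CPM on average, were not called either.

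**Figure D4:**
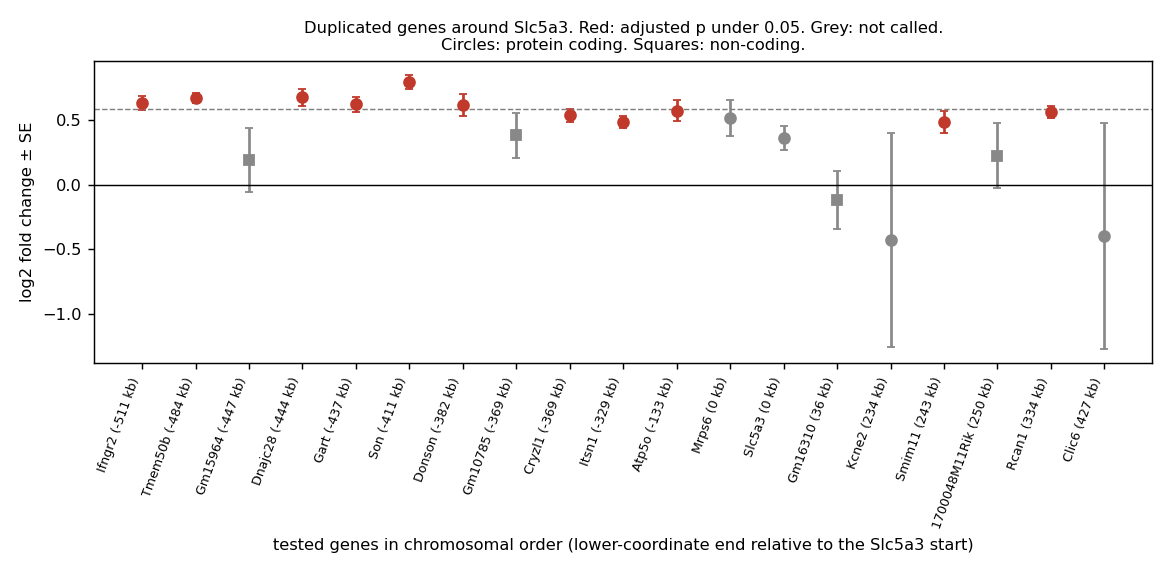
Log2 fold change with its SE (y axis) of the 19 tested genes around Slc5a3 in chromosomal order (x axis, with the lower-coordinate end of each gene in kb from the start of Slc5a3), red where called. The called coding genes lie between 0.48 and 0.79, close to the dashed line at 0.585, Slc5a3 lies lower at 0.36, and Kcne2 and Clic6 have the longest error bars.

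Of the 2-copy transporters, Slc2a13, the proton/myo-inositol symporter of neurons and glia, was at 119, 127, 119, 121 and 111 CPM in WT mice 1 to 5. In Dp1Tyb mice 1 to 5 it was at 133, 130.5, 143, 147 and 119.7 CPM. All Dp1Tyb values except that of Dp1Tyb 5 lay above the highest WT value. The means of 119 ± 5.37 and 135 ± 10.9 CPM (SD, n = 5 each) gave a fold difference of 1.13 and a log2 fold change of 0.17 ± 0.054 (SE), with an adjusted p of 0.167 in edgeR and 0.0945 in DESeq2. Slc2a13 tended the other way from Mrps6 with choroid plexus RNA (r = -0.53, rho = -0.32, exact permutation p = 0.203 and 0.443, and r = -0.59 without the 2 farthest mice), and its log2 fold change with the covariate was 0.13 ± 0.055 (SE, adjusted p = 0.358). The summed CPM of the neuronal markers was also higher in every Dp1Tyb mouse than in any WT mouse, although their mean log2 levels overlapped. Of these 8 markers, 1 was called and 2 had a negative log2 fold change. The summed CPM of 5 endothelial markers was lower in every Dp1Tyb mouse (199.0 to 210.7) than in any WT mouse (211.7 to 226.8). Their mean log2 levels overlapped as well (Dp1Tyb 5 at 5.31, WT 3 at 5.309), and 0 of the 5 were called. Among single tested genes, complete separation was seen in 3.68%. The part of either marker list in the Slc2a13 values was not tested.

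Slc5a11, the second sodium-coupled transporter, was counted 10 to 24 times per library and was at 0.416 to 0.976 CPM in WT and 0.275 to 0.606 CPM in Dp1Tyb. The ranges overlapped, and the log2 fold change of -0.47 ± 0.29 (SE) had an adjusted p of 0.488. Its 95% interval, -1.09 to 0.16, was the widest of the 7 members. The log2 fold change was -0.26 with the choroid plexus covariate. With a mouse left out it ran from -0.59 (without WT 2) to -0.28 (without Dp1Tyb 1). DESeq2 gave it no adjusted p.

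The synthesis enzymes had small differences. Isyna1, which makes inositol-3-phosphate, was at 28.5, 24.8, 33.1, 34.2 and 32.04 CPM in WT mice 1 to 5. In Dp1Tyb mice 1 to 5 it was at 27.2, 28.7, 30.4, 27.7 and 34.2 CPM. The groups overlapped almost completely, and the log2 fold change was -0.05 ± 0.088 (SE, adjusted p = 0.845) and turned to 0.07 with the choroid plexus covariate. Like Mrps6, Isyna1 followed the choroid plexus level (r = 0.82, exact permutation adjusted p = 0.00681, rho = 0.83, adjusted p = 0.0287, and r = 0.70 without the 2 farthest mice).

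Impa1, the main inositol monophosphatase, ran from 46.9 to 48.9 CPM in WT and from 47.3 to 51.7 CPM in Dp1Tyb, where 4 of 5 values lay above the highest WT value. Its log2 fold change was 0.06 ± 0.039 (SE) at an adjusted p of 0.482. Impa2, its paralogue, was at 2.99 to 4.78 CPM in WT and 2.82 to 4.02 CPM in Dp1Tyb, and its log2 fold change was -0.17 ± 0.15 (SE) at an adjusted p of 0.609. With the choroid plexus covariate this became -0.0019, and Impa2 had an r of 0.82 with that level (exact permutation adjusted p = 0.00794, rho = 0.72, adjusted p = 0.0473, and r = 0.78 without the 2 farthest mice). An antisense transcript, B430212C06Rik, covers 23.55% of the Impa2 exon sequence, and the strand setting of the counting is not given in the sources used here. Sense and antisense reads could therefore be mixed in the low Impa2 counts. For Impa1, a coding gene annotated on the same strand, Gm38303, shares 243 bases (4.47%) of the exon sequence.

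Levels were compared between members as RPKM, the CPM divided by the annotated exon length in kilobases. Over the 10 mice, Slc2a13 had the highest mean, 15.2 RPKM, followed by Isyna1 at 12.3, Mrps6 at 9.82 and Impa1 at 8.99 RPKM. The ranges of neighbours overlapped down to Impa1. Slc2a13 exceeded Isyna1 in 10 of 10 mice, Isyna1 exceeded Mrps6 in 8 of 10, and Mrps6 exceeded Impa1 in 5 of 10. This order pools mice with 2 and with 3 copies of Mrps6 and Slc5a3. In WT mice Mrps6 averaged 8.07 RPKM, below Impa1 at 8.79 RPKM. In Dp1Tyb mice Mrps6 averaged 11.6 RPKM, above Impa1 at 9.19 RPKM. Slc5a3 came next at 3.84 RPKM, then Impa2 at 0.678 and Slc5a11 at 0.206 RPKM, each with a range below that of the gene before it. The exon length of Slc5a3, 10913 bases, is mostly untranslated, so its RPKM depends on how much of that length the transcripts carry.

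Divided by coding length instead, which was tried after the data were seen and leaves untranslated exons out of the length but not out of the counts, the order was Slc2a13 (66.4 CPM per coding kilobase), Impa1 (49.7), Mrps6 (40.1), Slc5a3 (19.4), Isyna1 (18.0), Impa2 (4.18) and Slc5a11 (0.278). Slc2a13 was thus the highest of the 3 transporters on both length scales, while the places of Slc5a3 and Isyna1 depended on the length used. The values per coding length also pool both genotypes.

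On the RPKM scale, Slc5a3 made up 20.4%, 15.9%, 19.3%, 18.3% and 20.2% of the summed transporters in WT mice 1 to 5. In Dp1Tyb mice 1 to 5 it made up 17.9%, 19.8%, 21.4%, 21.1% and 24.6%. The highest 3 shares were in Dp1Tyb mice, but Dp1Tyb 1 and 2 lay within the WT range. The mean share was 18.8% ± 1.84 in WT mice and 20.96% ± 2.48 in Dp1Tyb mice (SD, n = 5 each), a difference of 2.13 percentage points with an exact two-sided permutation p of 0.167. By coding length the difference was 2.26 percentage points (exact permutation p = 0.182). These are shares of transcript and not of transport capacity.

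The members did not vary as 1 group among the mice. As a description over 10 deviations from the genotype means, which share libraries and choroid plexus content, Isyna1 and Impa2 went together most closely (r = 0.92), followed by Impa2 and Mrps6 (r = 0.88) and Isyna1 and Mrps6 (r = 0.83). Slc5a3 went with Slc5a11 (r = 0.75) more than with its overlapping neighbour Mrps6 (r = 0.40). Slc5a11 had only 10 to 24 counts per library, and the part of counting noise in its deviations was not tested. Among the 11912 other genes with a mean of at least 5 CPM, those most like Slc5a3 were Dnah2 (r = 0.94) and Ccdc39 (r = 0.93), both of motile cilia, Hspa5 (r = 0.93), the endoplasmic reticulum chaperone BiP, Rest (r = 0.93), a repressor of neuronal genes, and Anxa5 (r = 0.89). None of these 5 is duplicated, and their log2 fold changes between genotypes lay from -0.08 (Dnah2) to 0.12 (Rest). As the top of 11912 genes ranked over 10 deviations, such r values can be high through selection alone. No chance level was computed, and a shared regulation or cell type was not tested.

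The same limit holds for the genes nearest to the other members. For Mrps6 the nearest were Polr2m (r = 0.98), Hemk1 (r = 0.97) and Dgcr6 (r = 0.96). For Isyna1 they were Slc19a1, the reduced folate carrier (r = 0.98), Tns1 (r = 0.98) and Plxnb2 (r = 0.97), and for Impa2 Psap, Adgre5 and Ogdh (r of 0.96, 0.95 and 0.95). The nearest to Impa1 were Pogk, Ints12 and Etaa1 (r of 0.91, 0.88 and 0.87). Zkscan14, Zbtb11 and Chm were nearest to Slc2a13 (r = 0.95 each), and L3mbtl3, Rp2 and Ptprk to Slc5a11 (r of 0.95, 0.94 and 0.92). Slc5a11 (0.275 to 0.976 CPM) and Impa2 (2.82 to 4.78 CPM) themselves lay below the 5 CPM asked of the compared genes.

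Downstream of transport and synthesis, 56 genes of inositol metabolism and signalling were listed by function, of which 55 were tested. A single gene of these was called, against 1.11% of all tested genes. There were 31 positive and 24 negative log2 fold changes, with a median of 0.0046 against -0.0041 for all tested genes. The called gene was Synj1, which encodes the synaptic phosphoinositide phosphatase synaptojanin and is itself in the duplicated segment. Its mean was 595 ± 25.3 CPM in WT mice and 928 ± 42.2 CPM in Dp1Tyb mice (SD, n = 5 each). The log2 fold change was 0.64 ± 0.044 (SE), with an adjusted p of 2.68e-06. The genotype ranges did not overlap, as for 62.3% of the tested duplicated genes.

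Of the 16 inositol phosphate phosphatases, the other 15 were not called in edgeR. Inpp5f, named after its values were seen, averaged 125 ± 6.14 CPM in WT mice and 143 ± 6.57 CPM in Dp1Tyb mice (SD, n = 5 each). Its genotype ranges did not overlap, as for 3.68% of all tested genes. The adjusted p was 0.0608 in edgeR, 0.0102 in DESeq2 and 0.173 in edgeR with the choroid plexus covariate. None of the 11 inositol phosphate kinases was called, with the largest log2 fold change at 0.50 ± 0.32 (SE) for Ip6k3, a gene at 0.521 CPM in WT and 0.703 CPM in Dp1Tyb. At an unadjusted p under 0.05 there were 2 of the 11 kinases, both lower, against 14.4% of all tested genes. DESeq2 called none of the kinases. Miox, the kidney enzyme that breaks down myo-inositol, had 0 counts in every library.

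None of the 13 genes of phosphatidylinositol synthesis was called by edgeR or DESeq2. Of the 13, 1 passed an unadjusted p of 0.05, against 14.4% of all tested genes. The largest log2 fold change was that of Pip4k2c, a phosphatidylinositol phosphate kinase, at 0.10 ± 0.033 (SE, adjusted p = 0.188). Of the 15 phospholipase C and IP3 receptor genes, none was called by either tool. An unadjusted p of 0.05 was passed by 2 of the 15, again against 14.4% of all tested genes. Plcd1, a phospholipase C, had the largest at -0.24 ± 0.096 (SE, adjusted p = 0.282). Itpr3, an IP3 receptor named after its values were seen, was lower in Dp1Tyb without overlap, a separation seen in either direction in 3.68% of all tested genes. It ran from 5.92 to 7.36 CPM in Dp1Tyb and from 7.49 to 8.66 CPM in WT. Its log2 fold change was -0.21 ± 0.084 (SE), with an adjusted p of 0.283 in edgeR.

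Most genes of the osmolyte list take up, make or release organic osmolytes or, like Nfat5, control such genes. Of the 11 genes of this list, 10 were tested and none was called by edgeR or DESeq2. Their median log2 fold change was -0.01, and 2 of the 10 passed an unadjusted p of 0.05, against 14.4% of all tested genes. The largest was that of Slc38a2, an amino acid transporter, with means of 107 ± 5.88 CPM for WT mice and 95.6 ± 5.04 CPM for Dp1Tyb mice (SD, n = 5 each), a log2 difference of -0.16 ± 0.047 (SE) and an adjusted p of 0.130.

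The KCNQ and KCNE potassium channel subunits were listed because SMIT1 is known to form complexes with KCNQ channels. Of 8 tested subunits none was called in edgeR, and 1 passed an unadjusted p of 0.05, against 14.4% of all tested genes. The subunit with the largest log2 fold change was Kcne4 at -0.43 ± 0.25 (SE), with about 1 CPM or less in both groups. Kcnq5, named after its values were seen, averaged 88.5 ± 5.08 CPM in WT mice and 102 ± 5.38 CPM in Dp1Tyb mice (SD, n = 5 each). Its genotype ranges did not overlap, as for 3.68% of all tested genes. Its log2 fold change was 0.21 ± 0.048 (SE), with an adjusted p of 0.0621 in edgeR, 0.00857 in DESeq2 and 0.0424 in edgeR with the choroid plexus covariate. Kcne1, which is duplicated, had 0 to 5 counts per library and was not tested.

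Among the 32 genes of the mitochondrial small ribosomal subunit, Mrps6 had the largest log2 fold change, and none was called in edgeR. The median of the list was -0.02, with 13 positive and 19 negative values. Mrps6 was the 1 gene of the list called by DESeq2 and also the 1 called with the choroid plexus covariate.

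**Figure D5:**
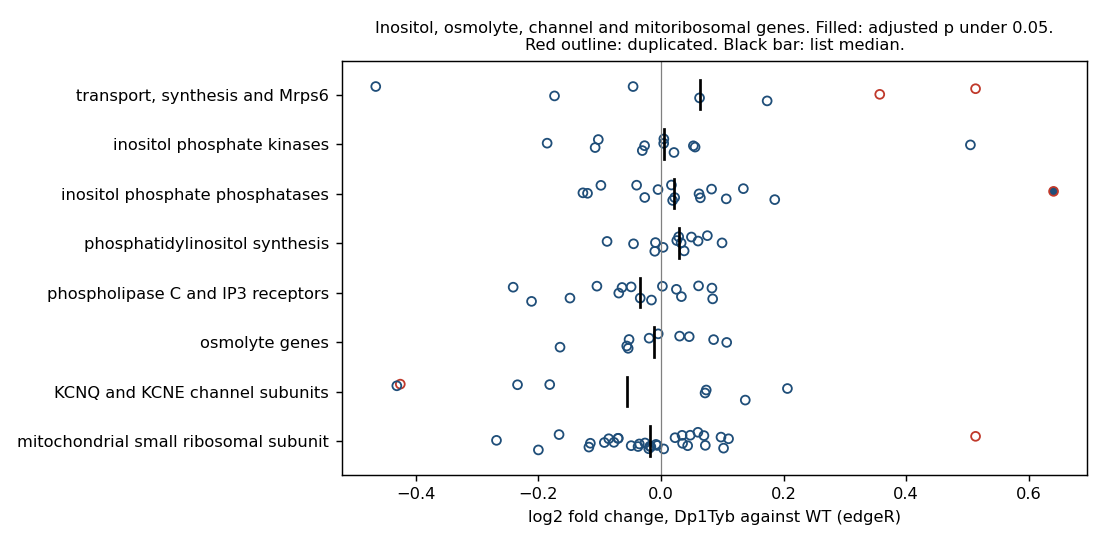
Log2 fold change between Dp1Tyb and WT mice (x axis, edgeR) of each tested gene, by functional list (y axis), filled where the adjusted p is under 0.05, with duplicated genes outlined in red and the list median as a black bar. The medians lie near 0, and the filled point at 0.64 is Synj1.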

How the data were processed

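Raw counts per gene, as deposited by the authors, were analysed for 5 WT and 5 Dp1Tyb libraries (TruSeq Stranded mRNA kit, 75 base paired-end reads). The authors trimmed adapters with Trim Galore, mapped the reads to GRCm38 with TopHat2 (2.0.12 in the submitters' processing notes), discarded reads with multiple alignments and counted with HTSeq. The annotation release, strand setting and treatment of reads in shared exons are not given in the sources used here. Normalised values and the columns of the authors' own DESeq2 comparison (fold changes and p-values) were not used.

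Of 43629 gene identifiers, 42548 were matched to GENCODE M21. Counts were fitted with edgeR 4.0.16 in R 4.3.3 (TMM normalisation, filterByExpr, glmQLFit and glmQLFTest) over all 17237 genes passing the filter, all 7 members among them, with Benjamini-Hochberg adjustment over all of them and a threshold of 0.05. CPM used TMM-scaled library sizes, and RPKM divided them by the union of annotated exons. Logarithms of single-sample CPM had 0.5 added. Ratios, shares and marker levels were compared with exact two-sided permutation tests over 252 relabellings. The 5 such tests were adjusted together. Correlations with the choroid plexus level were permuted within genotypes (14400 arrangements).

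Totals of 18227684 to 43692270 reads set the counting precision, which was lowest for Slc5a11 and Impa2. No pair of libraries agreed within sampling noise (lowest chi-square per degree of freedom 4.68 over 45 pairs). As each library is 1 mouse, p-values measure the spread between mice. The fitting code was tested on simulated data. Alternatives were DESeq2 1.42.0, DESeq2 size factors in edgeR, no filter, the choroid plexus covariate, a replicate block, each sample left out and, added later, coding length for the levels.

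The members, marker lists, pathway lists and tests were chosen with earlier results of these data known. Besides the members, the named genes were the called genes, the gene with the largest absolute log2 fold change and the duplicated genes of each list, the genes within 500 kb of Slc5a3, and the genes most correlated with each member (5 for Slc5a3, 3 for the others, mean of at least 5 CPM). Inpp5f, Itpr3 and Kcnq5 were named after their values were seen.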

Additional observations from a re-analysis of the deposited data

Results flagged for a closer look

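The log2 ratio of Slc5a3 to Mrps6 in Dp1Tyb mouse 4 was 1.96, whereas the other 4 Dp1Tyb mice lay between 1.20 and 1.33. Its gap to the nearest of them took up 0.826 of the range of the group, above the 95% limit of 0.71 for 5 samples. It was the 1 group so marked of 24 groups of 5 that were checked, and chance marks about 1 in 20. In this mouse Slc5a3 was at 51.9 CPM, the highest of the 10 mice, and Mrps6 at 12.9 CPM, inside the WT range. Its choroid plexus marker level was the second lowest of the 10 mice, and the part of that level in the ratio was not tested.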

How the results depend on the processing

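Slc5a3 kept its direction in every alternative and passed the threshold in DESeq2 (log2 fold change 0.3547), with the choroid plexus covariate (0.4281) and with no filter on low counts (0.3591, adjusted p = 0.0463). With a mouse left out it ran from 0.3031 to 0.4274, past the threshold only without Dp1Tyb 1 (adjusted p = 0.0232). Mrps6 passed in DESeq2 (0.5118), with the covariate (0.7036), and without the 3 samples lowest in choroid plexus RNA (0.5993, adjusted p = 0.00949), an alternative chosen after seeing the data. With a mouse left out Mrps6 ran from 0.4191 to 0.605, past the threshold only without Dp1Tyb 4 (adjusted p = 0.0390). Isyna1 changed sign with the covariate (0.07064) and without WT 4 (0.00051, range -0.1151 to 0.00051). The difference of Mrps6 relative to the other duplicated genes changed sign against their mean (0.07795), without WT 3 (0.02827) and without Dp1Tyb 4 (0.07528, range -0.1073 to 0.07528). The cause of these changes was not tested.

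Members called numbered 2 in DESeq2 and with the covariate, 1 with no filter and 1 without the 3 samples, and 0 to 1 with a mouse left out. Genes called over the whole table numbered 507 in DESeq2, 108 without the 3 samples and 105 to 218 with a mouse left out. Inositol phosphate phosphatases called numbered 2 in DESeq2 and 1 to 2 with a mouse left out. For KCNQ and KCNE subunits the count was 1 in DESeq2, with the covariate and with no filter. For the mitochondrial small subunit it was 1 in DESeq2, with the covariate and without the 3 samples, and 0 to 1 with a mouse left out. With a mouse left out, the ratio of Slc5a3 to Mrps6 ran from -0.2828 to -0.09057, and the difference in the Slc5a3 share of transporters from 1.21 to 2.896 percentage points (exact permutation p = 0.0476 without Dp1Tyb 1).

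The deviations of same-numbered mice correlated at 0.277, 0.259 and 0.343 for numbers 1, 3 and 5 and at -0.000386 and -0.0597 for numbers 2 and 4, and 2 of 5 numbers matched best with their own. The labels tie the numbers to no litter or batch, and the mice were not treated as paired. With the replicate number as a block, 315 genes were called, 2 phosphatases and 1 KCNQ or KCNE subunit among them, and no member (Slc5a3 0.35, adjusted p = 0.0616, and Mrps6 0.50, adjusted p = 0.0743). Sign-flip tests of 5 differences cannot give a p under 0.0625. Slc5a11 had 10 to 24 counts per library.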
